A study of Mus musculus with 27 samples.

Results

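Among the H3K4me1 sites of mouse blood stem cells, 12781 were marked at both ages in stem and progenitor cells and carried no H3K27ac peak in progenitors at either age. They were chosen by presence of peaks: a site was an adult hematopoietic stem cell (HSC) H3K4me1 peak of 1 kb or wider that overlapped, by at least 1 bp, a peak of the 3 other H3K4me1 lists and none of the fetal or adult H3K27ac lists. The adult HSC list held 143571 peaks, of which 49370 were 1 kb or wider and 43961 of these lay in all 4 H3K4me1 lists, so that 29.1% (95% Wilson interval 28.7 to 29.5) of the sites that could qualify were unacetylated. The 8 peak lists held 901169 peaks in all. The other sites of the same kind had H3K27ac in fetal progenitors only (1705 sites), in adult progenitors only (10039) or at both ages (19436). These 3 classes are the comparison below, above all the sites acetylated at both ages.

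The mice had a B6 background and were fetal (E16.5) or adult (8 weeks), and their HSC were sorted beside hematopoietic progenitor cells (HPC). The assay was ChIPmentation, in which the Tn5 transposase tags chromatin while it is held by the antibody. For H3K4me1 the adult HSC list pooled 4 libraries and each of the other 3 lists pooled 3. Each H3K27ac list pooled 3 HPC libraries, and 3 further libraries were inputs. A second K27 set of HPC pooled 2 fetal and 3 adult libraries. Its titles name H3K27me3 and its mark field H3K27ac, so it is called the second K27 set here. The sources used here do not give the surface markers of the sort. H3K27ac was profiled in HPC only, so whether these sites carry it in HSC was not measured. Each list pools its libraries, so no spread between replicates exists, no test across samples was possible and every interval below covers counting error only.

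H3K4me1 lies on enhancers and on the flanks of promoters, and an enhancer with H3K4me1 and no H3K27ac is usually called primed. H3K27ac, placed by CBP and p300, marks enhancers and promoters in use. H3K27me3 is placed by Polycomb repressive complex 2, mostly at CpG-rich promoters of genes that are off in a lineage, and sites with both H3K4me1 and H3K27me3 are often called poised. In blood, many lineage enhancers carry H3K4me1 in stem cells before the lineage genes are used. The name primed fits the rule, but a missing H3K27ac peak is only a missing call at these depths and in these 2 pooled progenitor lists. It says nothing of other blood cells.

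Promoter windows with a start inside an unacetylated site differed in CpG between sites with and without a peak of the second K27 set. A start lay inside few of the sites, and the rest of their DNA was not read. A gene can have several starts, some inside it, as the one shown for Lhx2 (gene at chr2:38339271-38369737). To show the contrast, the 250 bases before a transcription start inside such a site are printed for 8 genes (RefSeq promoters, GRCm38.p6, CpG dinucleotides in capitals, genes chosen after their values were seen). The first 4 lie in sites with a peak of the second K27 set at both ages: Olig2, a factor of motor neurons and oligodendrocytes (chr16:91225300-91225549, plus strand), Lhx2, a forebrain and eye factor (chr2:38351058-38351307, plus), Hand2, a heart and limb factor (chr8:57320733-57320982, plus), and Pax5, the commitment factor of B cells (chr4:44710695-44710944, minus).
Olig2: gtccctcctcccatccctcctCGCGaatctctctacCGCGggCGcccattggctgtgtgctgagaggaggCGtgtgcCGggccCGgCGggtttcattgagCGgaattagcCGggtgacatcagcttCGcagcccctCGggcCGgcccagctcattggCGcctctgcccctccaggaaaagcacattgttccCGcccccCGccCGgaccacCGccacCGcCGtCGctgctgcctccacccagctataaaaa
Lhx2: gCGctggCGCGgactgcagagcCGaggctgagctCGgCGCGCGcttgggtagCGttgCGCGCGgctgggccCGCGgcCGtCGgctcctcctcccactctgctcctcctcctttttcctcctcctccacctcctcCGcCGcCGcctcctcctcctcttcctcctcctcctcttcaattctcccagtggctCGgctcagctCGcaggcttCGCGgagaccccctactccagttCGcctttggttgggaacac
Hand2: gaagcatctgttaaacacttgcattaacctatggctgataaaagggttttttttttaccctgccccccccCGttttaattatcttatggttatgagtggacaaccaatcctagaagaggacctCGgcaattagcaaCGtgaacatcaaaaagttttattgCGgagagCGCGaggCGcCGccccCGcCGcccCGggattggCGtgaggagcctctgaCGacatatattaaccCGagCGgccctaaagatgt
Pax5: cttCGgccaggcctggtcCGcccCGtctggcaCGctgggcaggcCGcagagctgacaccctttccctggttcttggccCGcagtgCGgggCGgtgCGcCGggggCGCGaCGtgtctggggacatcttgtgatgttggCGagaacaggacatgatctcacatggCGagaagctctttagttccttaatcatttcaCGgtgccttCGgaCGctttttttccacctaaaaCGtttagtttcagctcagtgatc
The windows of Olig2, Lhx2, Hand2 and Pax5 held 22, 24, 15 and 19 CpG. In the same order, the highest −log10 q of the second-set peaks in their sites was 8.19, 10.8, 10.8 and 17.3 in the fetal list. In the adult list it was lower, 3.49, 4.54, 3.49 and 1.38.

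The other 4 promoters lie in sites with no peak of the second K27 set at either age and belong to genes of blood cells. They are Csf2, the cytokine GM-CSF (chr11:54249900-54250149, minus strand), C1qc, a complement chain made by macrophages (chr4:136892915-136893164, minus), C5ar1, the receptor for complement fragment C5a (chr7:16259339-16259588, minus), and Fgr, a Src-family kinase of myeloid cells (chr4:132973845-132974094, plus).
Csf2: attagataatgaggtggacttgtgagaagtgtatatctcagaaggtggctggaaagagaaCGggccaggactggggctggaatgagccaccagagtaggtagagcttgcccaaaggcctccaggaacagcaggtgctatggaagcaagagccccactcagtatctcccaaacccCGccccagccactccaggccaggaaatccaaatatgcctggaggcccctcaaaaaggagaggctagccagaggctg
C1qc: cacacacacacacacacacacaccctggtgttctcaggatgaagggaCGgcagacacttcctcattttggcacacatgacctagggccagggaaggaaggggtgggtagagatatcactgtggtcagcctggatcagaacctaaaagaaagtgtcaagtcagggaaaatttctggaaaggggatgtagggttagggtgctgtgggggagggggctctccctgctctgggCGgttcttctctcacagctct
C5ar1: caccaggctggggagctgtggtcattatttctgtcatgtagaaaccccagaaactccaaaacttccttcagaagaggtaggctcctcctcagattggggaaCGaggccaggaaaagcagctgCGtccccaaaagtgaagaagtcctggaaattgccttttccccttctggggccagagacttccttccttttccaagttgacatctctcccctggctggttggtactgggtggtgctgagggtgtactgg
Fgr: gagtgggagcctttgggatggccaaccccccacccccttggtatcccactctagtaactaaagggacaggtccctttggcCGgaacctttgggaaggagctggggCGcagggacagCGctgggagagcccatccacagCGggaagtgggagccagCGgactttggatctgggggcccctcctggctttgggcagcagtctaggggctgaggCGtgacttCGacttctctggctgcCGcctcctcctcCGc
The windows of Csf2, C1qc and C5ar1 held 2 CpG each and that of Fgr held 9. The 250 bases before the Fgr start were 64.4% G and C, close to the 66.8% of Olig2, while Hand2 had 15 CpG at 49.2%.

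Over all promoters with a start inside an unacetylated site the same contrast held. The RefSeq table used here held 32851 windows of 300 bases (250 before and 50 after a start), and starts on chromosome 18 were not analysed here. A start lay inside 916 of 12395 unacetylated sites (7.39%, 6.94 to 7.86) and inside 1240 of 18860 sites acetylated at both ages (6.57%, 6.23 to 6.94). With a peak of the second K27 set the share was 416 of 1391 sites (29.9%, 27.6 to 32.4), without one 500 of 11004 (4.54%, 4.17 to 4.95). A ratio of observed to expected CpG of at least 0.6 was found in 58.6% of the 548 windows in sites with the second K27 set, in 22.4% of the 586 windows in sites without it, in 11.4% of the 1451 windows in sites acetylated at both ages and in 35.8% of all windows. The median number of CpG per window was 16 with and 7 without the second K27 set, against 5 in sites acetylated at both ages. Several windows can belong to a gene, and windows of a gene often overlap.

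Short motifs, none of which contains another, were searched on both strands of these windows and gave smaller contrasts. A GATA motif (AGATAA) stood in 9.52% of the 1134 windows in unacetylated sites, 13.5% of those in sites acetylated at both ages and 11.2% of all windows. For a RUNX motif (TGTGGTT) the shares were 4.14%, 7.86% and 5.27%, and for a PU.1 motif (GAGGAAGT) 2.91%, 6.82% and 3.20%. An ETS motif (CCGGAAG) stood in 3.79%, 5.44% and 8.86%, and an AP-1 motif (TGACTCA) in 4.32%, 8.75% and 5.20%. A KLF motif (CCACCC) stood in 42.3%, 36.1% and 31.5%, an E-box (CAGCTG) in 17.5%, 19.8% and 16.3%, a CTCF core (AGGGGGC) in 15%, 8.06% and 10.6%, a CEBP motif (TTGCGCAA) in 0.353%, 0.207% and 0.183%, and a MEIS-HOX motif (TGATTTAT) in 0.265%, 1.10% and 0.977%. The GATA, RUNX, PU.1, ETS and AP-1 letters were thus less frequent at unacetylated starts than at starts in sites acetylated at both ages, and the KLF and CTCF letters more frequent. Against the 796 windows in sites acetylated in adult HPC only this did not hold for all, since those had GATA at 9.67%, ETS at 3.39% and KLF at 42.8%. The unacetylated windows also differed among themselves. With the second K27 set GATA stood in 7.30%, RUNX in 2.74% and ETS in 4.93%, and without it in 11.6%, 5.46% and 2.73%, so that GATA and RUNX without the second K27 set lay near the shares of all windows. These are letter matches in windows that differ in base composition, not sites of binding.

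The second K27 set was a readout that the rule did not use, but it is not independent of the rule. Its peaks hardly overlapped H3K27ac peaks of the same age (below), so a low share at acetylated sites is partly built into the comparison. The differences are therefore a description. Peaks of the fetal list overlapped 1358 unacetylated sites (10.6%, 10.1 to 11.2) and 44 sites acetylated at both ages (0.226%, 0.169 to 0.304), a difference of 10.4 percentage points (Newcombe interval 9.87 to 10.9), while over all 43961 sites the share was 3.71%. Peaks of the adult list overlapped 765 unacetylated sites (5.99%, 5.59 to 6.41) and 11 sites acetylated at both ages (0.0566%, 0.0316 to 0.101), a difference of 5.93 points (5.53 to 6.35), against 1.90% over all sites. Sites acetylated in adult HPC only had 2.28% and 0.548%, and sites acetylated in fetal HPC only 0.0587% and 0.352%. Each class with H3K27ac at an age thus had fewer second-set peaks of that age than the unacetylated sites. Most unacetylated sites, 11350 (88.8%), had no second-set peak at either age, 692 (5.41%) had it at both ages, 666 in the fetal list only and 73 in the adult list only. Only 7097 fetal and 576 adult second-set peaks had a −log10 q of at least 5. With these peaks alone the fetal difference was 4.80 points and the adult one 0.102 points, so the adult share rests mostly on peaks below that level.

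**Figure D1:**
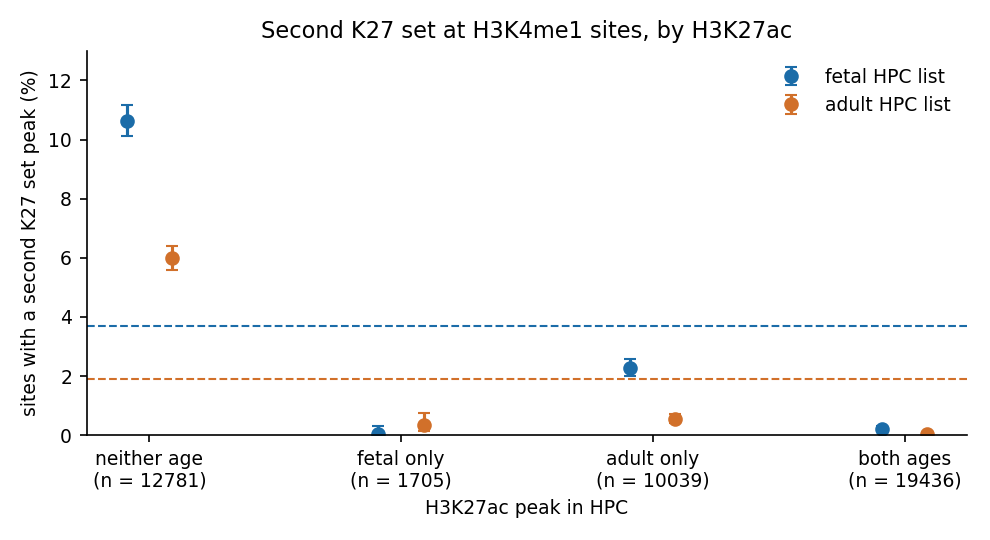
Share of H3K4me1 sites (vertical axis, %) that overlap a peak of the second K27 set in fetal HPC (blue) and adult HPC (orange), by H3K27ac in HPC (horizontal axis), with 95% Wilson intervals and the share over all sites as dashed lines. The unacetylated sites stand at 10.6% and 5.99%, and the other 3 classes at 2.28% or below.

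The 2 H3K27ac lists and the second K27 set hardly shared positions. Of the 54339 fetal second-set peaks, 245 (0.451%) overlapped a fetal H3K27ac peak and 1864 (3.43%) an unacetylated site. Of the 54293 adult second-set peaks, 16 (0.0295%) overlapped an adult H3K27ac peak and 977 (1.80%) an unacetylated site. Most of the second K27 set therefore lay outside the sites described here.

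Unacetylated sites with and without the second K27 set differed in place and shape. Within 1 kb of a protein-coding gene end lay 9.30% of sites without it, 45.6% with the fetal list only, 49.3% with the adult list only and 56.6% with both. Their median distance to the nearest H3K27ac peak was 4560.5 bp without it and 37033.5 bp with both, and their median width was 1470 and 2058.5 bp. H3K4me1 of adult HPC covered a median of 92.7% of a site without the second K27 set and 93.8% with both. In fetal HSC the covered share was 83.8% without and 48.9% with both, and in fetal HPC 91.2% and 48.5%. The adult HPC list thus covered the sites of both kinds alike, while the fetal lists covered less of the sites with the second K27 set. The sites themselves are adult HSC peaks, and the lists differ in number and width of peaks, and the part of peak calling in this gap was not tested.

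**Figure D2:**
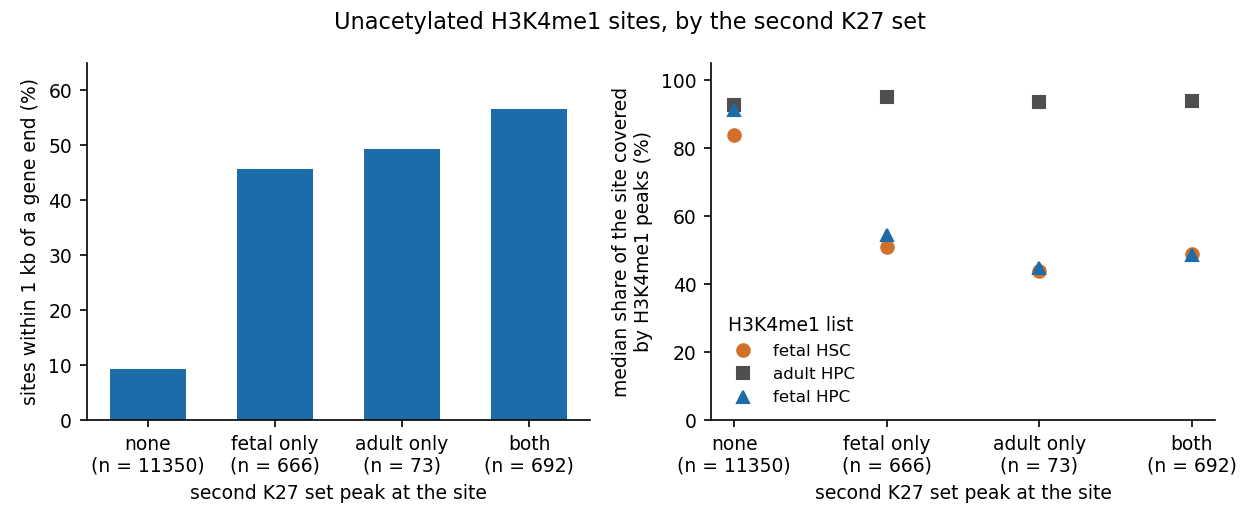
Unacetylated sites by presence of a second K27 set peak (horizontal axis). The left bars give the share within 1 kb of a protein-coding gene end (%), from 9.30% to 56.6%, and the right points the median share of the site covered by H3K4me1 peaks (%) of fetal HSC, adult HPC and fetal HPC, where the fetal points drop from 83.8% and 91.2% to between 43.9% and 54.5%.

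Relative to gene ends, the unacetylated sites were more distal than sites acetylated at both ages, although a start lay inside slightly more of them (7.39% against 6.57%, above). A gene end, meaning a start or an end of a protein-coding gene, lay within 1 kb of 1788 (14.0%, 13.4 to 14.6) against 33.9% of sites acetylated at both ages, a difference of -19.9 points (-20.8 to -19.0), with 23.5% over all sites. Inside a protein-coding gene lay 8509 (66.6%, 65.8 to 67.4) against 71.9%, a difference of -5.36 points (-6.39 to -4.33), with 68.7% over all sites. More than 100 kb from any protein-coding gene lay 849 (6.64%), against 3.89% of sites acetylated at both ages. Sites acetylated in adult HPC only had closer shares, with 18.3% near a gene end and 64.5% in a gene, and those acetylated in fetal HPC only were the most distal, with 5.81% near a gene end. On the X chromosome 100 of 196 sites were unacetylated (51%, 44.1 to 57.9), while the autosomes ran from 25% on chromosome 17 to 32.4% on chromosome 13.

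By their own H3K4me1 the unacetylated sites were weaker and narrower than sites acetylated at both ages. This is a description, since peak presence and width chose the unacetylated sites. Their median width was 1499 bp (1000 to 15603) against 2111 bp for sites acetylated at both ages. The median fold over background in the authors' adult HSC list was 3.99 against 4.86, and the median −log10 p 17.6 against 26.5. Ranked within each list by −log10 p, their median percentile was 75.3 in adult HSC, 81.2 in fetal HSC, 69.4 in adult HPC and 76.7 in fetal HPC, against 88.0, 92.0, 88.6 and 91.8 for sites acetylated at both ages. In the quintile of sites with the lowest adult HSC −log10 p, 50.5% were unacetylated, and in the highest quintile 8.78%. By width the share went from 43.4% at 1000 to 1249 bp to 3.74% at 5000 bp and above. The part of signal strength in the missing H3K27ac calls was not tested. Among the sites at or above the median −log10 p the fetal second-set difference was 14.1 points and the adult one 8.54, and below it they were 8.84 and 4.84.

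**Figure D3:**
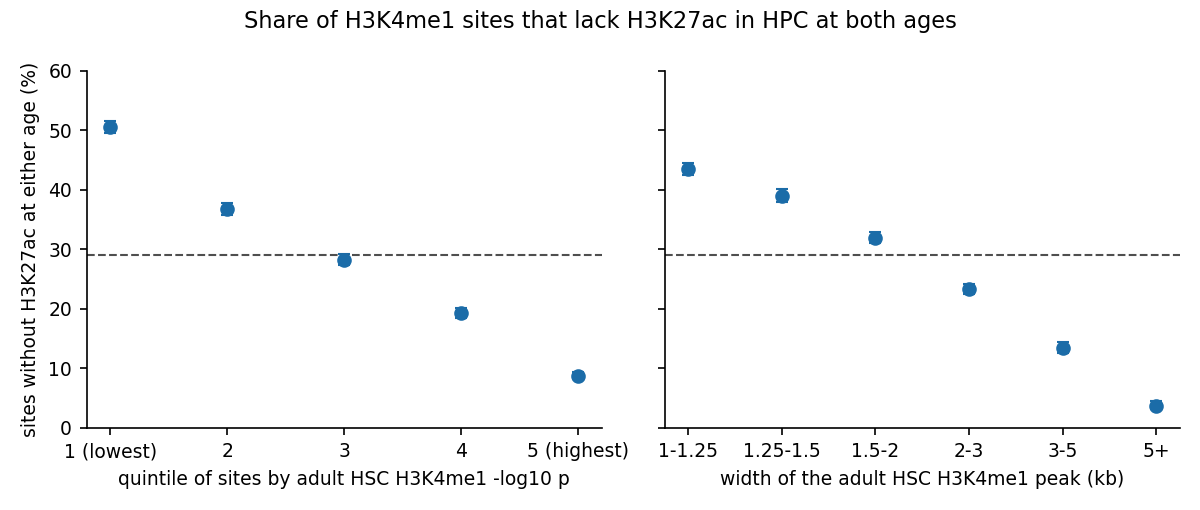
Share of H3K4me1 sites without H3K27ac at either age (vertical axis, %) by quintile of the adult HSC −log10 p (left) and by peak width in kb (right), with 95% Wilson intervals and the overall 29.1% as a dashed line. The share is 50.5% in the lowest quintile and 8.78% in the highest, and 43.4% in the narrowest and 3.74% in the widest sites.

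At the width limit, 19 members were exactly 1000 bp wide, and the first 3 in chromosome name order lay at Catip (adult HSC fold 3.90), Spp2 (3.31) and Ppp1r12a (2.99). Just outside the rule 24 sites were 1 bp narrower, and the first 3 in the same order lay at Dst (3.67), Rfx4 (3.56) and Cnot2 (3.03). The 1641 members less than 100 bp above the limit had a median fold of 3.44, and the 1839 otherwise qualifying sites at most 100 bp below it 3.35. The sites thus differed little across the width limit.

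The other H3K4me1 lists covered most of a typical site, but not of every site. The median covered share was 79.7% in fetal HSC, 93.0% in adult HPC and 87.4% in fetal HPC, and 8335 sites (65.2%) were covered over at least 50% of their width in all 3. A site was split into several peaks in 44.7% of cases in fetal HSC, 30.1% in fetal HPC and 18.5% in adult HPC. Fewer than 10% of the bases were covered at 119 sites in fetal HSC, 76 in fetal HPC and 20 in adult HPC.

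The nearest H3K27ac peak was often close by. Its median distance was 10609 bp in the fetal list, 6866 bp in the adult list and 5407 bp in either. Within 1 kb of an H3K27ac peak lay 1983 sites (15.5%) and within 5 kb 6134 (48.0%), while 12328 (96.5%) lay within 100 kb. The smallest distance was 2 bp, so the rule leaves sites at the border of acetylated regions in, and without those within 5 kb 6647 sites remain.

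**Figure D4:**
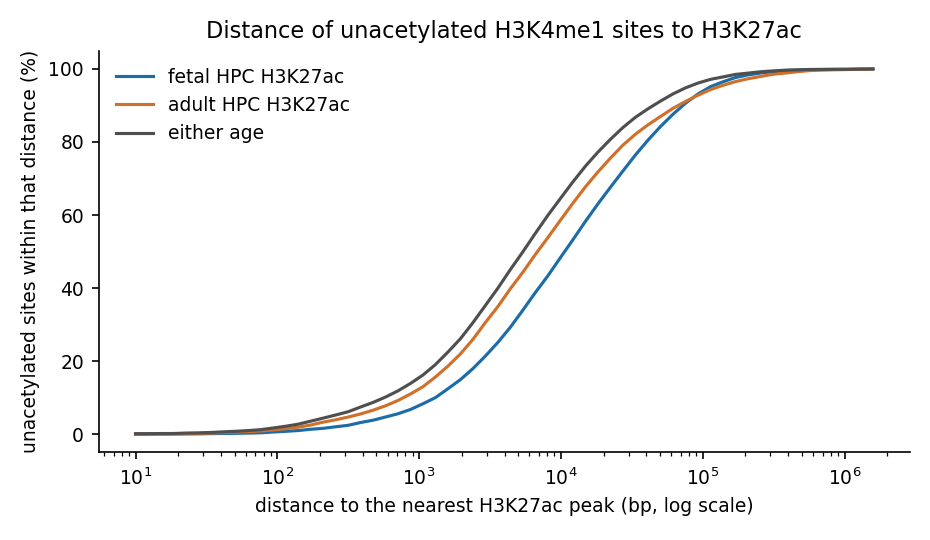
Share of the 12781 unacetylated sites (vertical axis, %) within a given distance in bp (horizontal axis, log scale) of an H3K27ac peak of fetal HPC, adult HPC or either. The curve for either age reaches 15.5% at 1 kb and 48.0% at 5 kb.

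The next H3K4me1 site of the same kind along the chromosome was unacetylated after 38.5% of the unacetylated sites and after 23.3% of those acetylated at both ages, against 29.1% after all sites. After sites acetylated in fetal HPC only the share was 34.1%, and after those acetylated in adult HPC only 27.3%. The median gap from an unacetylated site to the next was 56065 bp. Of 7862 runs with no acetylated site between, 5044 held a single site, and 7737 sites (60.5%) stood in runs of 2 or more. Runs also arise where sites of 2 classes follow each other in no order, and the share expected then was not computed. The longest runs held 13 sites each, at Prkca, Cep112 and Axin2 (chr11:108258001-108924086) and across the Hoxd genes (chr2:73973567-74764343). Runs of 12 sites lay across the Hoxb genes from Hoxb13 to Hoxb6 (chr11:96133341-96301588), at Adgrl2 (chr3:148885237-149187440) and from Mpdz to Nfib (chr4:81333452-82539227). In all, 231 runs held 5 or more sites.

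A protein-coding gene lay within 100 kb of 11932 sites, and 6216 genes were the nearest gene of 1 or more. Most of these genes, 3809, also had sites acetylated at both ages, and their 8226 unacetylated sites made up 64.4% of all. A single unacetylated site was found at 3555 genes, 5 or more at 392 and 10 or more at 40. The 15 genes with the most sites were 58.8 to 682 kb long, and each also had acetylated sites. These outnumbered the unacetylated ones at some genes, such as Gse1 (27), Rere (29) and Mecom (29), but not at Tiam1 (5), Adgrl2 (3) or Prkca (6). Mllt3, whose human counterpart maintains HSC, had 22 unacetylated sites, 4 acetylated at both ages, 4 in fetal HPC only and 2 in adult HPC only. Their adult HSC fold ran from 2.67 to 5.43 and 0 of the 22 had a second-set peak. Asap1, an Arf regulator, had 18 unacetylated sites, Gse1 and the scaffold protein Iqgap2 17 each, and 16 each were found at the Rac activator Tiam1, the adhesion receptor Adgrl2, the HSC factor Mecom, the nuclear factor Nfia and the growth factor receptor Igf1r. Rere, the kinase Prkca and Zfhx3 had 15 each, and Rybp, a Polycomb subunit, Angpt1, the ligand of the receptor Tek, and Atxn1 14 each. Arid1b also had 14, with 45 acetylated sites, and was left out of the 15 by its lower highest −log10 p. Of these 15 genes, Tiam1 (1 site), Adgrl2 (4), Nfia (4) and Zfhx3 (3) had unacetylated sites with a fetal second-set peak, and Zfhx3 alone with an adult one (2). Mecom had as many sites acetylated at both ages as unacetylated ones, 16.

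At 1675 of the 6216 genes (26.9%) all sites of this kind were unacetylated, and 1006 of these (16.2% of the 6216) had no H3K27ac peak in the gene body at either age. Of the 1006, 100 had 3 or more unacetylated sites. A gene with 1 or few sites can have all of them unacetylated at the overall share of sites, and the number of such genes expected was not computed. The genes with the most sites among the 1006, chosen after their values were seen, were Hoxd3 with 7, Lhx2, the adhesion protein Kirrel3 and Trim71, an RNA-binding ubiquitin ligase of early embryos, with 6 each, and Pax6, Nr2f1, Lmx1b, Olig3, Vax1, Foxb1, the neuronal splicing factor Nova2, the neurotrophin receptor Ngfr and the hormone gene Pthlh with 5 each. All 7 Hoxd3 sites had a fetal second-set peak and 5 an adult one. All 5 Nr2f1 sites had both. The 6 Kirrel3 sites had 0 at either age, although the Kirrel3 gene body held 62 fetal and 37 adult second-set peaks.

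The developmental regulators of other tissues held 131 unacetylated sites of 155 (84.5%, 78.0 to 89.4), against the 29.1% over all sites, and this is the highest share of the 21 lists of genes. These lists were chosen with results of these data known, so the share is a description. Of the 54 regulators 53 had a site of this kind and 52 had an unacetylated one, 37 had no acetylated one and 51 had an unacetylated site with a second-set peak. Of the 131 sites, 113 had a fetal and 88 an adult second-set peak. Sites acetylated at both ages numbered 9, at 6 genes. The Hox clusters had 43 of 55 sites (78.2%, 65.6 to 87.1) at 23 genes, 29 of them with a fetal and 19 with an adult second-set peak, and the neuronal adhesion and axon guidance genes 42 of 81 (51.9%, 41.1 to 62.4), 8 with a fetal and 4 with an adult one.

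At Lhx2 the 6 unacetylated sites had adult HSC folds of 4.40 to 5.63, and the site at the printed promoter (chr2:38349148-38353293) had a fold of 4.99 in adult HSC, 3.08 in fetal HSC, 6.83 in adult HPC and 3.19 in fetal HPC. Its second-set fold was 5.22 in the fetal and 4.62 in the adult list. Of the 6 Lhx2 sites 5 had a fetal and 4 an adult second-set peak. Pax6, the master factor of the eye, had 5 sites with adult HSC folds of 3.67 to 6.0, all with a fetal second-set peak (2.17 to 5.72) and 4 with an adult one. Hand2 had 4 sites, all with a fetal and 3 with an adult second-set peak, and the site at its promoter (chr8:57320100-57324399) had folds of 6.27 in adult HSC, 4.44 in fetal HSC, 4.62 in adult HPC and 4.34 in fetal HPC. Nkx2-5, a heart factor, had 4 sites, each with a second-set peak at both ages. Folds of different lists are not on a common scale.

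At Olig2 the site was 9800 bp wide (chr16:91219305-91229104), the second widest of all, and its nearest H3K27ac peak lay 124193 bp away in the fetal and 107725 bp away in the adult list. Adult HPC H3K4me1 covered 92.4% of it in 2 peaks, fetal HSC 45.5% in 10 and fetal HPC 52.0% in 9. The second K27 set had 4 fetal and 3 adult peaks in it. The widest site, of 15603 bp, lay in Nfix, a nuclear factor of brain and blood, with 2 fetal and 0 adult second-set peaks. The next were at Lasp1, an actin-binding protein (8874 bp), the ephrin receptor Epha2 (8268), Gpbp1 (8018), Adnp (7752), Ccdc85c (7745) and Isl2, a motor neuron factor (7724). Of these 6, Isl2 had second-set peaks, 7 fetal and 5 adult, and the others had 0.

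In the Hox clusters the largest counts were at Hoxd3 (7 sites), Hoxb9 (4), Hoxa13 (3) and Hoxb13 (3), none with an acetylated site of the same kind. The Hoxd3 sites had adult HSC folds of 3.03 to 5.59 and fetal second-set folds of 2.60 to 5.99. Among neuronal adhesion genes, Tenm4 had 7 unacetylated sites and 12 acetylated ones, and the guidance genes Robo2 (4), Slit3 (3) and Robo1 (3) had no acetylated site of the same kind. H3K27ac peaks did lie in these guidance genes, 12 fetal and 1 adult in Robo2, 1 and 0 in Slit3 and 6 and 0 in Robo1. The unacetylated sites of Tenm4, Robo2, Slit3 and Robo1 carried 0 second-set peaks. Their gene bodies held 59 fetal and 51 adult second-set peaks in Tenm4, 7 and 4 in Robo2, 25 and 53 in Slit3 and 9 and 4 in Robo1. The difference of the neuronal adhesion list from sites acetylated at both ages had an interval that contains 0 among the sites at or above the median −log10 p.

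The highest second-set −log10 p at an unacetylated site was 36.2 in the fetal list, across a transcription start of the cell polarity gene Pard3 (chr8:127063164-127065371), where the adult value was 14.2. Other high values in the fetal list lay 22479 bp from Hoxc4 (35.2), in the cadherin gene Cdh22 (32.2), in the hindlimb factor Tbx4 (30.2) and at the eye factor Six6 (25.7). In the adult list Cdh22 came first with 24.5, followed by Pard3, Tbx4 (13.3), the neuronal chromatin subunit Dpf1 (12.6), the neuregulin receptor Erbb4 and Sox2 (11.6 each).

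Lists of blood genes lay near the overall 29.1% or under it. The genes leading each list were ranked by number of unacetylated sites, not by share. Acetylated sites numbered 50 at Foxp1, 38 at Runx1, 22 at Bcl11a and 20 at Kit. There were fewer at Tcf12 (6), Zbtb16 (5) and Gata3 (2). HSC identity genes had 94 of 342 sites unacetylated (27.5%, 23.0 to 32.4), among them Mllt3 (22), Mecom (16) and Runx1 (6), with a fetal second-set peak at 3 of the 94. Lymphoid priming genes had 93 of 298 (31.2%, 26.2 to 36.7), led by Foxp1 (13), Tcf12 (10), Zbtb16 (9) and Gata3 (7), 12 of them with a fetal and 6 with an adult second-set peak. Erythroid and megakaryocyte genes had 48 of 163 (29.4%), led by Sox6 (8), Epb41 (7), Myb (5) and Bcl11a (5). Cytokine and growth factor receptors had 52 of 189 (27.5%), led by Igf1r (16), Tgfbr3 (13), Kit (4) and Tgfbr1 (3), none with a second-set peak. Chemokine receptors and integrins had 40 of 176 (22.7%), led by Ptk2 (6), Itga9 (5), Itgb1 (3) and Cxcr2 (3). The fetal stem cell programme had 12 of 39 (30.8%), led by Dlk1 (3), Hmga2 (3), Igf2bp2 (2) and Igf2 (2), and the mast cell, basophil and eosinophil genes 10 of 32 (31.2%, 18 to 48.6), led by Mitf (4), Ccr3 (3), Cpa3 (2) and Il13 (1).

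Lower shares were found for genes in broad use and for granulocyte and monocyte genes. Granulocyte and monocyte genes had 10 of 82 sites unacetylated (12.2%, 6.76 to 21), inflammatory signalling genes 15 of 91 (95% interval 10.3 to 25.4%), interferon and antigen presentation genes and housekeeping genes 16 of 90 each (17.8%, 11.2 to 26.9) and cell cycle genes 24 of 104 (23.1%, 16.0 to 32.0), the last with an interval that contains 29.1%. Cebpb had 2 unacetylated and 16 acetylated sites, Csf2rb 2 and 2, and Irf8 1 and 8. Fcgr3, of the same list, went the other way with 2 unacetylated and 0 acetylated sites, and 1 of the 2 had second-set peaks at both ages. Il6ra had 5 unacetylated and 4 acetylated sites, Nfkbia 3 and 5, Socs3 2 and 6, and Stat3 1 and 4. In the same order, Ifih1 had 3 and 1, Tap1 2 and 1, Ddx58 2 and 0, and Nlrc5 2 and 3. Ywhaz had 5 and 18, Rab7 2 and 5, B2m 1 and 0, and Tuba1b 1 and 2. Rb1 had 4 and 5, Ccnd3 4 and 11, E2f3 3 and 3, and Ccnd1 2 and 7. Within the sites at or above the median −log10 p, and within those below it, the granulocyte and monocyte, inflammatory and interferon lists no longer differed from sites acetylated at both ages with an interval off 0, while the housekeeping list did.

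**Figure D5:**
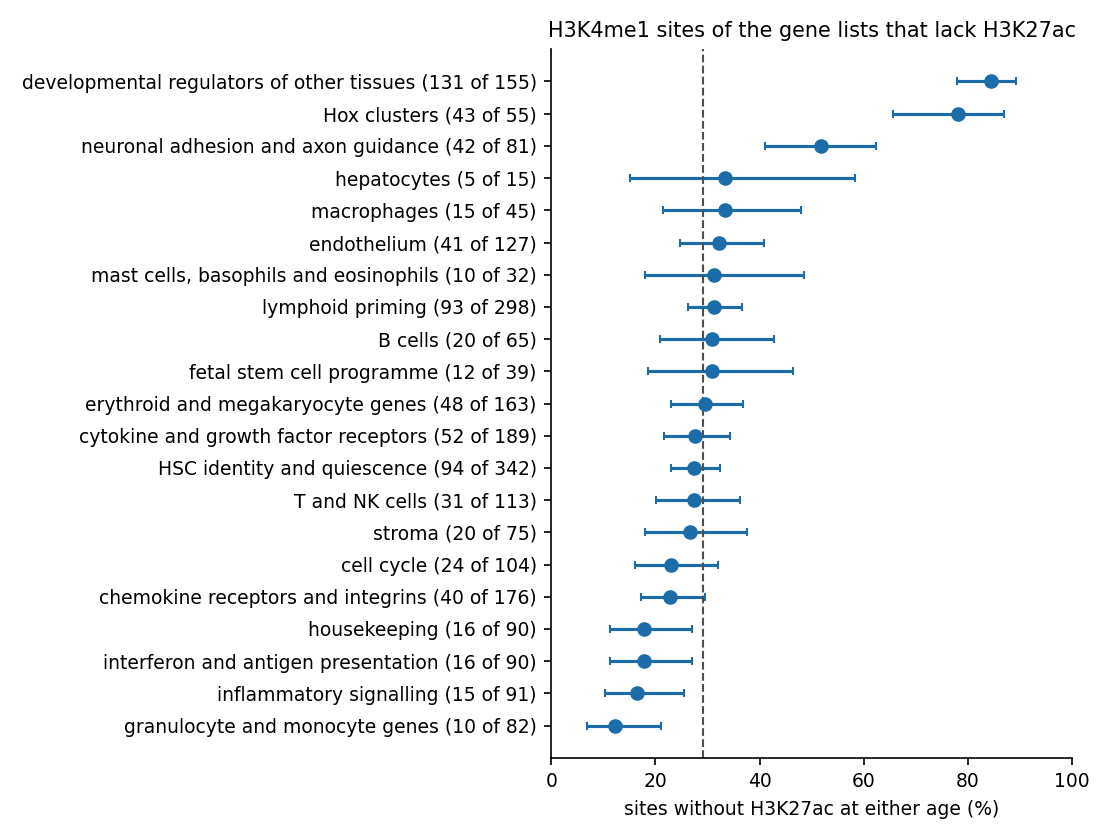
Share of H3K4me1 sites without H3K27ac at either age (horizontal axis, %) for each of the 21 gene lists (vertical axis, unacetylated of all sites in brackets), with 95% Wilson intervals and the 29.1% over all sites as a dashed line. The developmental regulators (84.5%) and the Hox clusters (78.2%) stand farthest to the right, and granulocyte and monocyte genes (12.2%) farthest to the left.

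Markers of cells that the sort could also hold had 20 of 65 sites for B cells (30.8%), 31 of 113 for T and NK cells (27.4%), 15 of 45 for macrophages (33.3%), 41 of 127 for endothelium (32.3%), 20 of 75 for stroma (26.7%) and 5 of 15 for hepatocytes (33.3%). All these intervals contain 29.1%. Genes leading these lists were again ranked by number of unacetylated sites. Bach2 also had 22 acetylated sites and Runx2 34, but Pax5 and Cd2 had 1 each. In the B cell list the members were led by Bach2 (10), Pax5 (3), Ebf1 (3) and Pou2af1 (2). The Pax5 promoter site (chr4:44710686-44714620) had folds of 5.54 in adult HSC, 4.58 in fetal HSC, 4.37 in adult HPC and 4.42 in fetal HPC, and second-set folds of 6.68 in the fetal and 3.09 in the adult list. Of the 3 sites of Ebf1, an early B cell factor, 2 had a fetal and 1 an adult second-set peak. T and NK genes were led by Cd2 (6), the T-box factor Eomes (6), Prkcq (5) and Tbx21 (3), and macrophage genes included Mertk (3), Maf (1) and C1qc (1). Cd2 and Eomes each had 3 sites with a fetal second-set peak, while Tbx21 and C1qc had 0. Endothelial genes were led by Flt1 (6), Ets1 (6), Kdr (5) and Erg (4), stromal genes by Runx2 (4), Pdgfra (3), Thy1 (3) and Col1a2 (3), and hepatocyte genes included Foxa1 (2), Foxa2 (1) and Apob (1), where all 3 sites at Foxa1 and Foxa2 had a fetal second-set peak. Whether such cells were in the sort was not tested.

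The strongest unacetylated sites by adult HSC −log10 p were 12 sites, 8 of them without a second-set peak. The first, 11321 bp from the Fc receptor gene Fcgr3 (chr1:171077236-171078884), had a −log10 p of 143 at a fold of 6.92, where the next had 69.4 at a fold of 8.55. This Fcgr3 site also had second-set peaks at both ages. The next was at Hrh2, the histamine H2 receptor (chr13:54185342-54188227), with folds of 5.16 in fetal HSC, 8.73 in adult HPC and 5.05 in fetal HPC. It was followed by a site 61136 bp from Tank, a regulator of TRAF signalling (−log10 p 67.5). After it came sites in Lasp1 (65.6), Tradd, the adaptor of the TNF receptor (65.5), the melanocortin receptor Mc1r and the neuropeptide gene Qrfp (64.2 and 64.1). The last were in Epha2 (64.0), Psd and the gelatinase Mmp9 (63.7 each), and Mapkapk2 and the transglutaminase Tgm2 (61.8 each). Second-set peaks lay at Fcgr3 and Mc1r at both ages and at Psd and Mmp9 in the fetal list. Their highest fetal −log10 q was 11.5 at Fcgr3, 2.73 at Mc1r and Psd and 1.52 at Mmp9. The adult one was 3.97 at Fcgr3 and 1.00 at Mc1r. The Epha2 site lay 95489 bp from the nearest fetal and 7824 bp from the nearest adult H3K27ac peak, the Hrh2 site 19570 and 12430 bp, and the Lasp1 site 1871 and 1662 bp.

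The blood gene promoters shown above lay in sites of different strength. The Csf2 site (chr11:54248741-54250632) had a fold of 6.63 in adult HSC, 3.56 in fetal HSC, 5.43 in adult HPC and 3.49 in fetal HPC. The C1qc site (chr4:136892040-136893507) had 3.54, 2.31, 4.25 and 2.28 in the same order, and the C5ar1 site (chr7:16258590-16260230) 3.54, 3.32, 3.15 and 2.44. The Fgr site (chr4:132971628-132978396), 6769 bp wide, had 5.49, 4.07, 6.43 and 5.64. Its nearest adult H3K27ac peak lay 4003 bp away and the nearest fetal one 25070 bp away, against 11609 and 91724 bp for Csf2.

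Of 1005 microRNA hairpins, 126 lay in a site, 23 of them in an unacetylated one (18.3%, 12.5 to 25.9) and 68 in one acetylated at both ages. Over all sites 29.1% were unacetylated, but that is a share of sites and the first a share of hairpins. Several hairpins can lie in the same site, as Mir3093 and Mir9-1 do, and the interval treats them as independent. Among the 23, the hairpins of Mir9-1 and Mir9-2 overlapped separate unacetylated sites with second-set peaks at both ages. Both encode miR-9, a microRNA of neural progenitors and neurons, printed with its seed (bases 2 to 8, RefSeq, GRCm38.p6) in capitals and chosen after its values were seen. The brain microRNAs Mir128-2 and Mir129-2 also lay in unacetylated sites, with 0 second-set peaks at either age. They were picked from the 23, which also included hairpins such as Mir26a-2, Mir744 and Mir1199, likewise with 0 second-set peaks. Whether brain microRNAs were more frequent among the 23 was not tested.
mmu-miR-9-5p: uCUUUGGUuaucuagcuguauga
mmu-miR-9-3p: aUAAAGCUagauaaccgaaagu
The Mir9-1 site (chr3:88213877-88217015) had an adult HSC fold of 4.49 and second-set folds of 3.89 in the fetal and 3.41 in the adult list. The Mir9-2 site (chr13:83737452-83738852) had an adult HSC fold of 3.67 and second-set folds of 6.22 and 3.98. Fetal H3K4me1 covered little of the Mir9-1 site, 6.34% in HSC and 22.4% in HPC, but 96.1% and 80.2% of the Mir9-2 site. The nearest protein-coding genes were Rhbg, 25859 bp away, and Mef2c, 70373 bp away.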

How the data were processed

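Libraries of ChIPmentation from fetal and adult mouse HSC and HPC were grouped by age, cell type and mark from the labels. The submitters' processing notes name Novoalign, MACS2 and mm10 (GRCm38), with no role or order. The sources used here do not give versions, calling threshold, peak filter or the use of inputs. The authors deposited 1 peak list per group, pooled over its libraries, with a fold (ratio of ChIP signal over background) per peak. The authors' −log10 p and −log10 q stand beside it. These values describe or rank peaks within a list only. Read depth is unknown, and 0 other columns of single samples were used.

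Overlap (1 bp), distance, the nearest of 21883 protein-coding RefSeq genes of GRCm38.p6 within 100 kb (of several genes at the same distance the shortest) and gene ends within 1 kb were computed with pandas 2.3.3 and numpy 2.4.6, and checked on simulated intervals. Gene ends stand for both starts and ends. Of 530 names in the 21 gene lists, 2 were not matched. Intervals are 95% Wilson and Newcombe. Named are the 15 genes with the most sites, the 12 strongest, 8 widest and 6 strongest second-set sites per age, up to 4 genes per list and 3 sites on each side of the width limit. Some genes under this rule are not reported here. The sites and lists were chosen with earlier results of these data known. Alternatives were other widths, overlaps, q limits, windows, the sites at or above and below the median −log10 p, and fetal HSC peaks as sites. No genome sequence was used, so sequence was read for promoters and microRNAs only.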

Additional observations from a re-analysis of the deposited data

How the results depend on the processing

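The number of unacetylated sites followed the width limit and the room left around H3K27ac. It was 12781 as reported, 24641 from 500 bp, 38698 with no width limit, 3200 from 2 kb, 6647 with no H3K27ac peak within 5 kb and 3705 among the sites at or above the median −log10 p. Under the other 7 alternatives it stayed between 9076 and 14375. The second-set difference (10.4 fetal and 5.93 adult points) was 4.80 and 0.102 with peaks of −log10 q of at least 5, 13.2 and 9.57 with peaks within 1 kb, 7.69 and 3.91 in sites of 1 to 2 kb, 14.1 and 8.54 at or above the median −log10 p and 8.84 and 4.84 below it. The gene end difference (-19.9 points) was -22.6 within 2 kb, -18.3 within 5 kb, -31.1 in sites of 1 to 2 kb, -20.9 with all genes of the table, -11.5 at or above the median −log10 p and -27.2 below it. The gene body difference (-5.36 points) was -3.70 below the median. All these differences kept their sign. The difference between the unacetylated sites and those acetylated at both ages in the share at granulocyte and monocyte genes, -0.102 points as reported, was 0.00584 below the median −log10 p, the only one of the 7 list differences with an interval off 0 to change sign. An interval that contains 0 was found for 4 of the 7 in sites at or above the median −log10 p and for 3 below it. In the upper and lower part the granulocyte and monocyte intervals were -0.277 to 0.0122 and -0.0976 to 0.0974, the interferon ones -0.269 to 0.132 and -0.173 to 0.0509 and the inflammatory ones -0.299 to 0.0353 and -0.126 to 0.104, and neuronal adhesion had -0.0289 to 0.297 in the upper part. Of 84 list differences under alternatives, 70 kept their sign. The causes were not tested. Peak lists without depth cannot tell a missing mark from a missed call. No paired analysis was possible because each list pools the libraries of its group.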
